A study of Mus musculus with 8 samples.

Results

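The 40 genes described here encode the folding and clearance machinery of the endoplasmic reticulum (ER) in Paneth cells (PCs), the granule-filled secretory cells at the base of small intestinal crypts. They were taken as a fixed list of symbols from a table of 55414 Ensembl genes. The list holds 10 HSP70 and HSP90 chaperones with their cofactors, 3 members of the lectin chaperone cycle, 11 disulfide enzymes and oxidases, 3 prolyl isomerases and 13 genes of ER-associated degradation (ERAD). PCs were sorted from mouse small intestine by FACS and their polyadenylated RNA was sequenced, giving 8 libraries. In 4 of them the mice had drunk Milli-Q water (purified laboratory water) for 7 days, and in the other 4 the water held 25 mM ZnSO4 (zinc sulfate) for the same time. Per the labels all mice, controls included, then received an injection of TNF (tumor necrosis factor, a cytokine of inflammation) and were sampled 3 hours later, so no group without TNF was compared. In the library labelled zinc 3 the TNF response genes were low, as given below, and the cause was not tested. The labels give neither strain nor age, and the study's methods describe C57BL/6J mice and samples from individual mice for its PC data sets in general.

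Proteins that will be secreted or placed in membranes enter the ER unfolded. HSP70 and lectin chaperones bind them there, protein disulfide isomerases form and correct their disulfide bonds, prolyl isomerases turn their proline bonds, and chains that fail are carried back to the cytosol and degraded by the proteasome, which is ERAD. Many of these genes are induced by the unfolded protein response (UPR) through promoter elements that the transcription factors ATF6 and XBP1 bind. PCs store large amounts of defensins, which are held together by disulfide bonds, and their dependence on XBP1 is well known.

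The promoter elements are shown first because they are the sequence feature these genes are known for. Promoter windows of RefSeq (build GRCm38.p6, 250 bases before to 50 bases after a start site) were matched for 35 of the 40 members, and Hyou1, Sil1, Manf, Erp29 and Derl1 were not matched. Exact matches were searched on both strands for the ER stress response element ERSE (CCAAT, 9 bases of any kind, CCACG), for ERSE-II (ATTGG, 1 base, CCACG) and for the core of the unfolded protein response element, UPRE (TGACGTGG). The 3 patterns have different letters and no 2 of the matches below overlapped. The upstream sequence of Hspa5, which encodes BiP, the main HSP70 chaperone of the ER, holds an ERSE next to a further CCAAT box. It is printed along the gene for chr2:34771940-34772089 (plus strand), the 150 bases before the start, with CCAAT and CCACG in capitals.
Hspa5 upstream: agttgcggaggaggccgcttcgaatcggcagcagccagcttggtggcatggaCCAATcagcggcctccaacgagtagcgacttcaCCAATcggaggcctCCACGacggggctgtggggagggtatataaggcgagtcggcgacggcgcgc

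ERSE was found in 10 of the 35 matched members (28.6%), against 37 of 27025 genes with a window (0.137%). The members were Hspa5, Hsp90b1, Calr, Canx, Pdia6, Creld2, Ero1b, Dnajc3, Derl3 and Syvn1, so the element was shared between chaperones, disulfide enzymes and ERAD genes. Their matches are printed 5′ to 3′ on the strand that carries them, with the CCAAT and CCACG blocks in capitals and the 9 spacer bases in lower case, to show how far the spacers differ while the blocks are fixed.
Hspa5, chr2:34772025-34772043, plus strand: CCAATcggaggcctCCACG
Syvn1, chr19:6046532-6046550, plus strand: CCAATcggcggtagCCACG
Hsp90b1, chr10:86705533-86705551, plus strand: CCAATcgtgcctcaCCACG
Hsp90b1, chr10:86705638-86705656, minus strand: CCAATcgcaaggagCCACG
Calr, chr8:84847075-84847093, plus strand: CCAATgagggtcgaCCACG
Canx, chr11:50325800-50325818, minus strand: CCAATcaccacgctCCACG
Pdia6, chr12:17266491-17266509, plus strand: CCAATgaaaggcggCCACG
Dnajc3, chr14:118937827-118937845, plus strand: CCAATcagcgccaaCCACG
Creld2, chr15:88819520-88819538, minus strand: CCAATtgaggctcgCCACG
Ero1b, chr13:12565682-12565700, minus strand: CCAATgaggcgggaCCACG
Derl3, chr10:75893242-75893260, minus strand: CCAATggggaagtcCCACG

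Hsp90b1, the HSP90 chaperone GRP94, was the member with 2 copies. ERSE-II was found in Herpud1, a membrane protein of the ERAD ligase complex, and in Dnajb11, a BiP cofactor (5.71% of members against 0.0444% of all genes). The UPRE core was found in Vcp, the ATPase that pulls ERAD substrates into the cytosol, and in the disulfide enzymes Txndc5 and Txndc11 (8.57% against 0.714%). Both ERSE-II matches are given in the same way.
Herpud1, chr8:94386377-94386387, plus strand: ATTGGgCCACG
Dnajb11, chr16:22857852-22857862, plus strand: ATTGGcCCACG

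**Figure D1:**
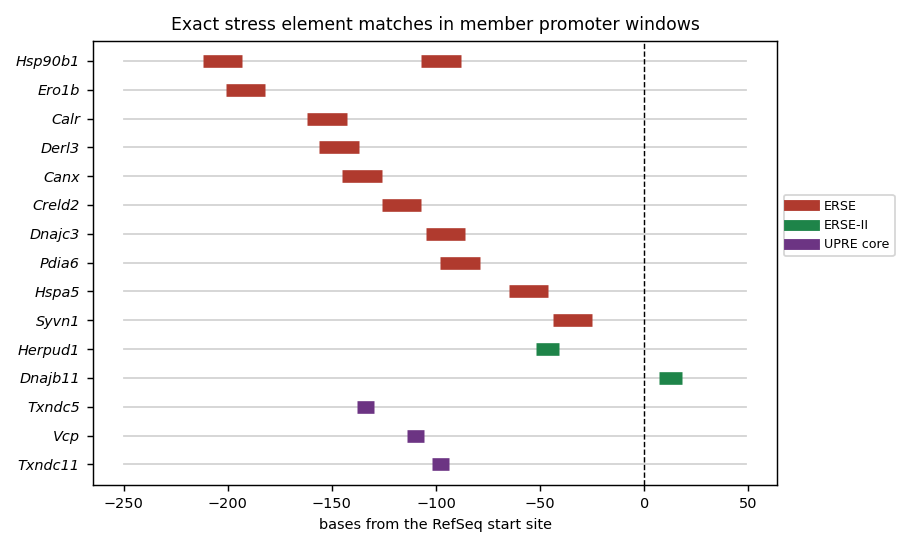
Positions of exact ERSE, ERSE-II and UPRE core matches in the promoter windows of the 15 members that hold one. The x axis gives bases from the RefSeq start site (dashed line at 0) and grey lines mark the windows; the ERSE matches lie between -212 and -26, and the ERSE-II of Dnajb11 lies after it.

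All 40 genes were expressed in the sorted cells and passed the expression filter. Library totals were 10623658 to 15101627 counts, and no member had fewer than 30 counts in any library. Summed, the members held 0.803% to 1.08% of the counts of a library, beside 34% to 44.8% for the alpha-defensin (Defa) genes. Levels between genes were compared as TPM, counts per kilobase of annotated exon scaled to the same total in each library. On this scale 28 members were among the 1000 most abundant genes, and the 40 together made up 0.196% of all TPM.

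P4hb, the classical protein disulfide isomerase, was the highest member at 589 ± 66 TPM (mean ± SD, n = 8 libraries, as for every TPM here), rank 34 among all genes. Its 8 libraries, 458 to 664 TPM, lay above those of every other member. Next came the lectin chaperone Calr at 203 ± 48.8 TPM, then Hspa5 at 170 ± 42.9 and Herpud1 at 115 ± 30.1. Calr (121 to 258 TPM) and Hspa5 (77.3 to 207 TPM) overlapped in their ranges, as did Hspa5 and Herpud1 (70.9 to 159 TPM). They were followed by Pdia3, the isomerase that works with the lectin chaperones, at 82.7 ± 11.6 TPM, and by Txndc5 at 78.3 ± 17 TPM. The upper 10 were completed by the ERAD selenoprotein Selenos (58.9 TPM), the prolyl isomerase Ppib (48.5 TPM), the BiP cofactor Sdf2l1 (43.9 TPM) and Hsp90b1 (43.7 TPM). From Calr downward each member overlapped the next in the order, except at the step from Pdia4 to Ero1b near the lower end.

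By role, the 11 disulfide enzymes and oxidases summed to 849 TPM, but P4hb carried most of it and the other 10 summed to 260.0 TPM. The other classes summed to less than 849 TPM, namely the 10 chaperones and cofactors (419 TPM), the 13 ERAD genes (355 TPM), the 3 lectin cycle genes (241 TPM) and the 3 prolyl isomerases (99.2 TPM). Related genes differed widely in level. Of the oxidases that feed disulfide bonds to the isomerases, Ero1a stood at 12.6 ± 5.54 TPM and Ero1b at 4.24 ± 1.26 TPM. Of the derlins, channel proteins of ERAD, Derl1 stood at 14.4 ± 3.16 TPM, Derl2 at 2.82 ± 0.359 and Derl3, the lowest of the 40 members, at 2.65 ± 1.13. Erp29 (2.74 ± 0.262 TPM), a thioredoxin-fold chaperone, was the next lowest. The TPM of a gene depends on the length used, and with Ensembl canonical transcripts Manf, a BiP-binding secreted factor, moved from place 29 to 12 among the members, Fkbp11 from 26 to 14, Os9 from 15 to 9 and Sdf2l1 from 9 to 19, while the first 3 places were unaltered. Ppib then stood at 135 TPM and Hsp90b1 at 81.4 TPM.

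**Figure D2:**
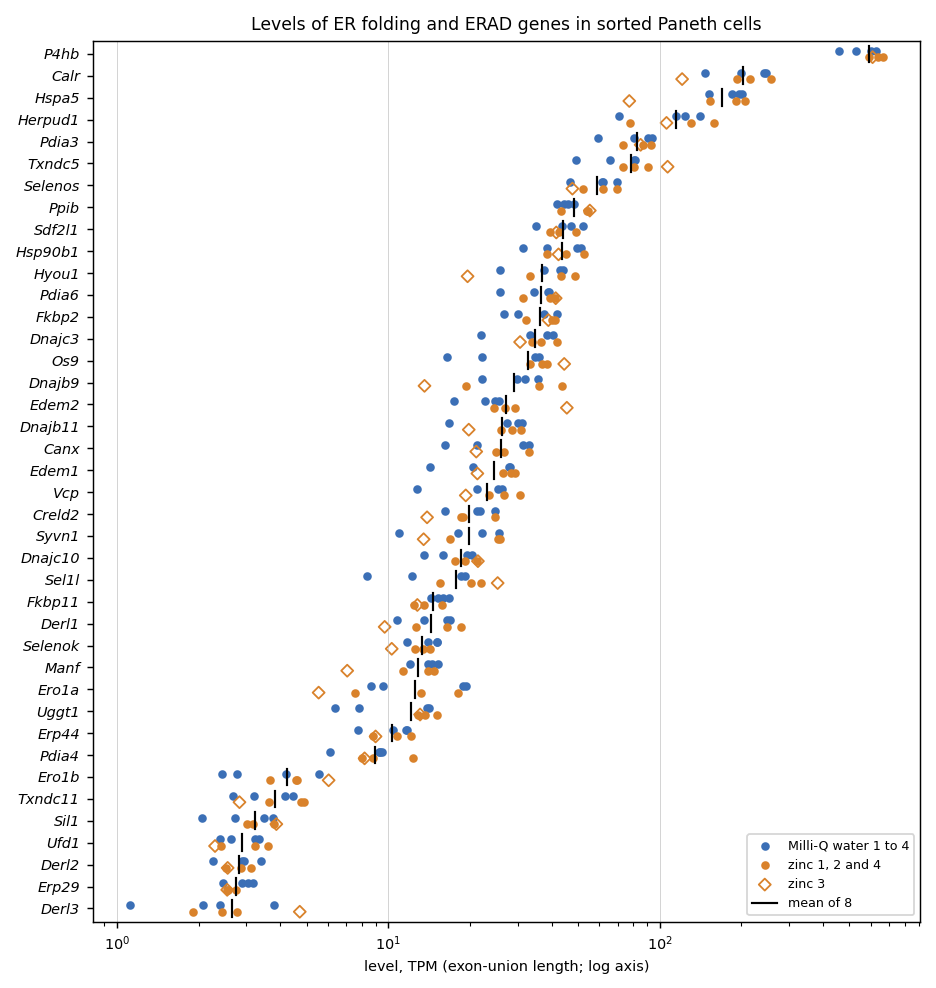
Level of each member in each library in TPM on a log axis, with Milli-Q water libraries in blue, zinc libraries in orange, zinc 3 as an open diamond and the mean of 8 libraries as a black bar. P4hb stands alone at the top at 458 to 664 TPM, and the library zinc 3 lies at the low end for Hspa5, Hyou1, Manf and Ero1a and at the high end for Edem2 and Derl3.

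The library labelled zinc 3 stood apart from the other 7, and fold changes that it moved by more than 1.5 times are also given without it. Its log2 CPM correlated with the other libraries across genes at r = 0.847 to 0.903. The summed level of the 20 genes of a TNF response list was 164 CPM (counts relative to TMM-adjusted library size) in zinc 3 and 1940 to 2280 CPM in the others, with Traf1 at 0 counts in all 8. The other 19 genes of that list were each lowest in zinc 3. Icam1 and Cxcl10 had 0 counts there, against 87.1 to 149 and 9.84 to 45.5 CPM elsewhere, and the NF-κB inhibitor Nfkbia was at 28.6 CPM against 434 to 534. The 15 enterocyte markers summed to 796 CPM there and to 324 to 461 CPM in the others, with none of them at 0 in all libraries. Of the 12 PC products, all were tested and none was at 0, and their sum was 476000 CPM in zinc 3, inside the 401000 to 755000 CPM of the others. Their mean log2 CPM was 12.96 there, at the low end of the 12.96 to 13.95 of the others. Zinc 3 was above all other libraries for 0 of the 12 and below them for 2. These were Reg3g (662 CPM against 2000 to 7700) and Pla2g2a (589 CPM against 1020 to 1340). Zinc 3 was above all other libraries for 14 of 15 enterocyte, 5 of 12 goblet cell, 6 of 11 crypt stem cell and 4 of 11 enteroendocrine and tuft markers. The goblet gene Fcgbp, for example, was at 1270 CPM against 59.8 to 318, and the stem cell gene Lgr5 at 52.3 CPM against 7.02 to 22.6. In the other direction, zinc 3 was below all other libraries for 1 goblet and 1 stem cell marker. These were Muc13 (1190 CPM against 1440 to 1680) and Sox9 (91.9 CPM against 176 to 238). The mean log2 CPM of the goblet list was 8.42 in zinc 3 and 7.33 to 7.91 in the others, and that of the stem cell list 5.97 and 4.81 to 5.84. The summed goblet (7760 CPM) and stem cell levels (1250 CPM) lay within the 5730 to 12400 and 715 to 1390 CPM of the others. Immune and stromal markers were near 0, at 14.9 to 35.1 CPM summed over 16 genes, and genes such as Col1a1, Col1a2, Col3a1, Kdr and Acta2 had no count. Milli-Q water 3 and 4 differed from the rest in other ways. Deviations of their log2 CPM fell with transcript length (Spearman rho across genes of -0.282 and -0.292), where the other libraries gave 0.0057 to 0.215. They also had the highest Defa shares of counts, 44.8% and 41.3% against 34% to 39.4%. Their TMM factors were the lowest, 0.758 and 0.893 against 0.986 to 1.14. The part of these differences in the results below was not tested, and in bulk RNA fewer cells of a type cannot be told apart from less RNA per cell.

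Zinc was compared with Milli-Q water to ask whether zinc in the drinking water altered the ER machinery of PCs after TNF. No member passed the threshold of an adjusted p of 0.05 in edgeR's quasi-likelihood test, where the smallest adjusted p of a member was 0.485, and none of the 10707 genes tested did (0%). By DESeq2 4 of all genes and 0 members passed, and by limma-voom with sample weights 0 of either. At an unadjusted p under 0.05, edgeR gave 2 members higher with zinc, Os9 and Sel1l, and 0 lower, beside 6.42% of all tested genes higher and 3.78% lower. In 2 members, Os9 and Uggt1, the 4 zinc libraries lay above the 4 water libraries, and in none did they lie below, beside 2.76% and 3.12% of all tested genes. Both counts were near these shares.

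Over all 8 libraries the direction was more often down than up. Of the 40 members, 29 had a negative log2 fold change (72.5%, beside 49.2% of all tested genes), and the median was -0.09 beside 0.0062 over all tested genes. Without zinc 3 the median was -0.05 with 29 members lower, and without Milli-Q water 3 and 4 it was -0.021 with 22 lower. With zinc 3 and Milli-Q water 3 and 4 all left out it was 0.04 with only 13 lower, so the direction depended on these libraries. The members' share of all counts went the other way, 0.956% ± 0.105 with water and 0.989% ± 0.0763 with zinc (SD, n = 4 each), a difference within the spread of the libraries. The difference of 0.033 percentage points became -0.0183 without Milli-Q water 3 and -0.0306 without Milli-Q water 3 and 4.

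**Figure D3:**
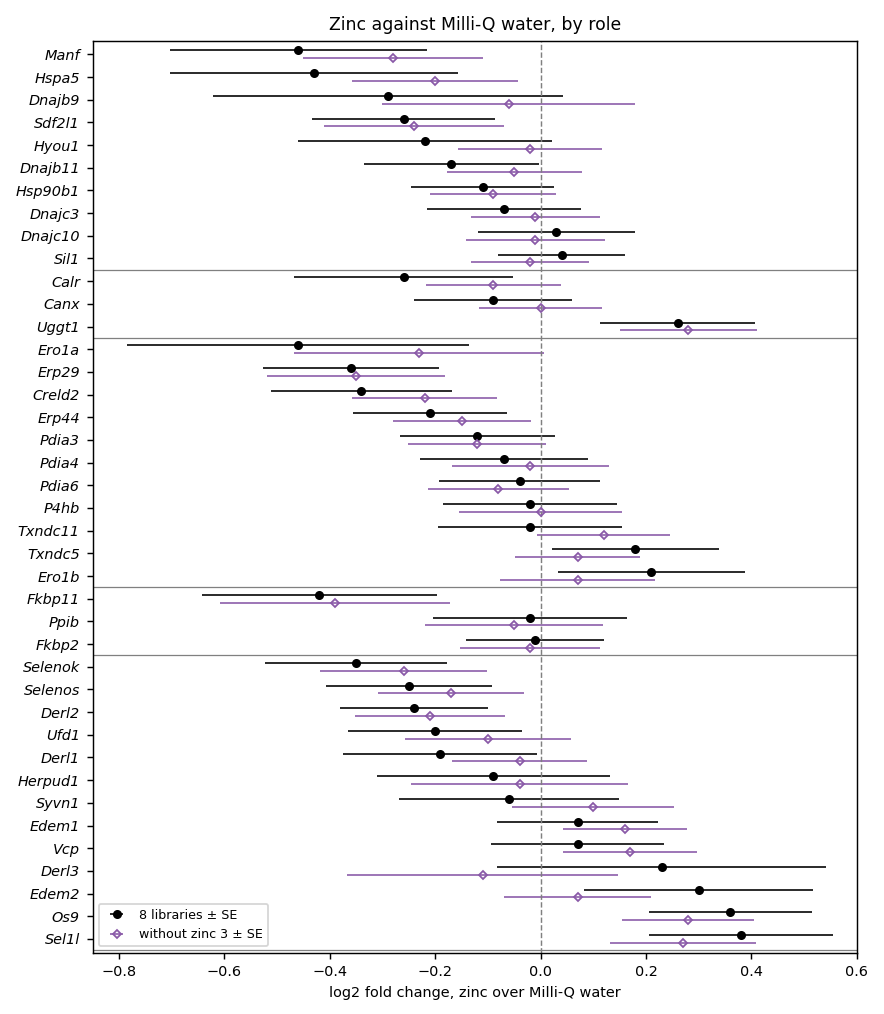
Log2 fold change of each member, zinc over Milli-Q water, ± SE from edgeR, with all 8 libraries (black) and without zinc 3 (open purple), grouped from top to bottom as chaperones, lectin cycle, disulfide enzymes, prolyl isomerases and ERAD. The values run from -0.46 to 0.38 and most of the chaperones move toward 0 when zinc 3 is left out.

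Among the chaperones and cofactors 8 of 10 were lower with zinc, at a median log2 fold change of -0.20. Without zinc 3 all 10 were lower, but the median was nearer to none, at -0.06, and Dnajc3 and Dnajc10 were at only -0.01. With Milli-Q water 3 and 4 also left out, Hspa5, Manf, Sdf2l1 and Dnajb9 were positive, at 0.008 to 0.215. Hsp90b1 was then at -0.037. Hspa5 (ENSMUSG00000026864, GRCm39 chr2:34661982-34668880) had 1050, 1020, 1370 and 1350 CPM in the 4 water libraries and 925, 1030, 444 and 1150 CPM in the 4 zinc libraries. The zinc 3 library was far below the rest, zinc 1 was somewhat below the lowest water library, and zinc 2 and 4 lay among the water libraries. The log2 fold change was -0.43 ± 0.273 (SE, adjusted p = 0.541, edgeR), and -0.20 without zinc 3 or -0.22 without Milli-Q water 3 and 4. On the TPM scale, where the large Defa share enters the scaling, the order of the water libraries differed and Milli-Q water 3 was the lowest of them for Hspa5, at 152 TPM against 185 to 201.

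Manf had the lowest fold change of the class. It stood at 169, 155, 239 and 243 CPM with water and at 150, 162, 88.8 and 185 CPM with zinc. This was -0.46 ± 0.244 on the log2 scale (adjusted p = 0.502, edgeR), and -0.28 without zinc 3 or -0.155 without Milli-Q water 3 and 4. As for Hspa5, the highest values were those of Milli-Q water 3 and 4 and the lowest that of zinc 3. Dnajb9, the J-domain cofactor ERdj4, spread most within groups, from 120 to 194 CPM with water and from 58.7 to 197 CPM with zinc (-0.29 ± 0.332, adjusted p = 0.717, edgeR, and -0.06 without zinc 3). Its zinc 4 library was the highest of all 8 and its zinc 3 library the lowest. Sdf2l1 had 50.4, 44.5, 63.3 and 76.4 CPM with water and 47.8 to 51.6 CPM with zinc (-0.26 ± 0.174, adjusted p = 0.562, edgeR). Its zinc libraries lay inside the range of the water libraries, so zinc 3 did not stand out for this cofactor, and without Milli-Q water 4 the value was -0.10. Hsp90b1 was steady, at 278 to 313 CPM with water and 256 to 301 CPM with zinc (-0.11 ± 0.136, adjusted p = 0.744, edgeR). Hyou1, a nucleotide exchange factor of BiP, was at 168 CPM in zinc 3 and at 299 to 406 CPM in the other 7 libraries. Sil1, the other exchange factor listed, was flat at 37.4 to 45.6 CPM with its highest value in zinc 3. The J-domain cofactors Dnajb11 (74.9 to 131 CPM) and Dnajc3 (214 to 296 CPM) were lowest in zinc 3, and Dnajc10, which also reduces disulfides, ran from 117 to 158 CPM.

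In the lectin cycle, which holds glycoproteins in the ER until they fold, the 3 genes differed. Calr had 891, 857, 911 and 997 CPM with water and 798, 884, 477 and 889 CPM with zinc, with zinc 3 alone far down (-0.26 ± 0.208, adjusted p = 0.604, edgeR, and -0.09 without zinc 3). Canx, its membrane-bound relative, ran from 201 to 230 CPM with water and from 166 to 226 CPM with zinc. Uggt1, the glucosyltransferase that returns misfolded glycoproteins to the lectins, differed in the other direction. It had 183, 176, 142 and 140 CPM with water and 204, 186, 186 and 191 CPM with zinc, so the groups did not overlap, by a gap of a few CPM. The log2 fold change was 0.26 ± 0.147 with an adjusted p of 0.517 (edgeR). It was 0.09 without Milli-Q water 3 and 4, the lowest libraries, and 0.13 with a correction for transcript length.

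Among the disulfide enzymes and oxidases 9 of 11 were lower, at a median of -0.07. P4hb, the most abundant, hardly differed between groups, at 2040 to 2770 CPM with water and 2220 to 2580 CPM with zinc (-0.02 ± 0.165, adjusted p = 0.973, edgeR, and -0.005 without zinc 3), and zinc 3 was in mid-range at 2340 CPM. Pdia4, another isomerase, was at 60.4 to 87.8 CPM and 60.7 to 79.3 CPM (-0.07 ± 0.159, adjusted p = 0.856, edgeR, and -0.02 without zinc 3). Erp29 had the smallest p of the lower members. It had 31, 28.2, 42.6 and 44.3 CPM with water and 29.3, 26.2, 28.1 and 29.8 CPM with zinc, which gave -0.36 ± 0.167 (adjusted p = 0.485, edgeR). Milli-Q water 3 and 4, the libraries with the length trend, stood clear of the zinc libraries, while Milli-Q water 1 was just above them and Milli-Q water 2 among them. Without Milli-Q water 3 and 4 the value was -0.07. With a correction for transcript length it was -0.39. Creld2, a UPR-induced gene listed here with the disulfide enzymes, had 52, 43.4, 57.8 and 60.9 CPM with water and 44.8, 48.6, 31.4 and 44.2 CPM with zinc (-0.34 ± 0.171, adjusted p = 0.491, edgeR, and -0.22 without zinc 3). The groups overlapped and zinc 3 was lowest.

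The oxidases moved in opposite ways in zinc 3. Ero1a was at 30.5 CPM there, below the 43.7 to 104 CPM of the other libraries, and Ero1b at 47 CPM, above their 27.3 to 38.5 CPM. Txndc5 was also highest in zinc 3, at 506 CPM against 336 to 398 CPM, while Txndc11 was lowest there at 41.5 CPM against 53.9 to 73.5 CPM. Pdia3 (375 to 496 CPM) and Pdia6 (218 to 289 CPM) had their lowest value in zinc 4. Erp44, which retrieves escaped ER enzymes from the Golgi, ran from 86.7 to 127 CPM.

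The 3 prolyl isomerases were all on the lower side, at a median of -0.02, and of -0.05 without zinc 3. Ppib, cyclophilin B, was at 170 to 277 CPM with water and 191 to 238 CPM with zinc (-0.02 ± 0.184, adjusted p = 0.969, edgeR, and -0.05 without zinc 3). Fkbp11, an isomerase of secretory cells, had 42.2, 38.5, 75.4 and 52.5 CPM with water and 47.4, 30.8, 36.7 and 40.8 CPM with zinc (-0.42 ± 0.223, adjusted p = 0.503, edgeR). Its Milli-Q water 3 library was the highest by a wide margin, Milli-Q water 4 was somewhat above the zinc libraries, and Milli-Q water 1 and 2 lay among them. Without Milli-Q water 3 the value was -0.20, and without Milli-Q water 3 and 4 -0.06. With a correction for transcript length it was -0.38. Fkbp2 stayed at 28.1 to 35.9 CPM.

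ERAD genes split, with 6 of 13 higher and 7 lower with zinc. Os9, a lectin that hands misfolded glycoproteins to the ligase complex, had 210, 193, 164 and 177 CPM with water and 245, 211, 281 and 221 CPM with zinc. All zinc libraries were above all water libraries, by 1 CPM at the nearest pair after rounding. The log2 fold change was 0.36 ± 0.155 (unadjusted p = 0.039, adjusted p = 0.485, edgeR), and 0.28 without zinc 3 (unadjusted p = 0.0412, edgeR). Sel1l, the scaffold of that ligase complex, had 166, 154, 123 and 145 CPM with water and 153, 179, 237 and 199 CPM with zinc, and only zinc 1 lay among the water libraries. The log2 fold change was 0.38 ± 0.174 (unadjusted p = 0.0499, adjusted p = 0.485, edgeR), and 0.27 without zinc 3. Without Milli-Q water 3 and 4 Os9 was at 0.24 and Sel1l at 0.25. With a correction for transcript length Os9 was at 0.38 and Sel1l at 0.34. Syvn1, the ubiquitin ligase HRD1 that these proteins serve, gave no such shift, at 87 to 115 CPM with water and 67.9 to 134 CPM with zinc.

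Herpud1 had 524, 441, 447 and 582 CPM with water and 328, 454, 423 and 669 CPM with zinc, where zinc 1 was the lowest and zinc 4 the highest of the 8 libraries (-0.09 ± 0.221, adjusted p = 0.879, edgeR, and -0.04 without zinc 3). Selenok, a small selenoprotein of the ER membrane, had 35.8, 36.9, 50.7 and 52.8 CPM with water and 38.8, 34.3, 28.6 and 36.3 CPM with zinc (-0.35 ± 0.172, adjusted p = 0.491, edgeR). Again it was Milli-Q water 3 and 4 that lay above the zinc libraries, and without them the value was -0.08. With a correction for transcript length it was -0.31. Selenos ran from 87.9 to 119 CPM with water and from 73.1 to 99.4 CPM with zinc. The mannosidase-like proteins that mark glycoproteins for disposal diverged in zinc 3, where Edem2 was at 231 CPM against 111 to 156 CPM elsewhere and Edem1 was the lowest of the 8 at 208 CPM against 221 to 292 CPM. The derlins did too. Derl3 was at 9.89 CPM in zinc 3 against 3.69 to 7.03 CPM elsewhere, Derl1 was at 55 CPM against 75.9 to 98.1 CPM, and Derl2 ran from 24.7 to 35.8 CPM. Vcp (123 to 179 CPM) and its partner Ufd1 (10.9 to 18 CPM) were lowest in zinc 3.

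**Figure D4:**
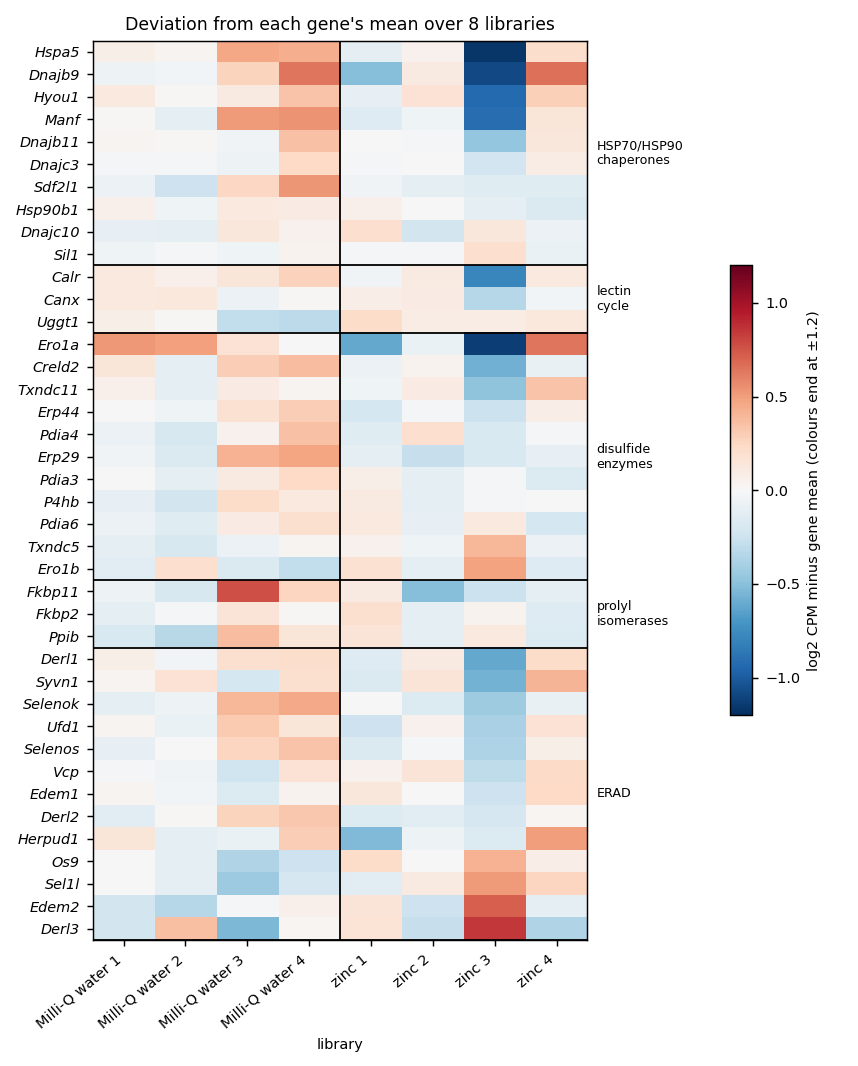
Log2 CPM of each member in each library minus the gene's mean over the 8 libraries, with members grouped by role and ordered within a role by zinc 3, and blue below and red above the mean. The zinc 3 column holds the deepest blue (Hspa5, Dnajb9, Hyou1, Manf, Calr and Ero1a), the deepest red are Derl3 in zinc 3 and Fkbp11 in Milli-Q water 3, and the Milli-Q water 4 column is mostly red.

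Across libraries the widest departures of the members were in zinc 3. In that library 20 of 40 members had their lowest value and 7 their highest, beside 30% and 29.8% of all tested genes. By role the lowest value fell in zinc 3 for 6 of 10 chaperones and cofactors, 2 of 3 lectin cycle genes, 4 of 11 disulfide enzymes, 0 of 3 prolyl isomerases and 8 of 13 ERAD genes. The log2 CPM of zinc 3 minus the mean of the other 7 libraries was -1.33 for Hspa5, -1.29 for Ero1a, -1.24 for Dnajb9, -1.07 for Hyou1, -1.04 for Manf and -0.90 for Calr. It was 0.97 for Derl3, 0.82 for Edem2 and 0.58 for Sel1l. For P4hb and Pdia3 it was -0.03 each, and for Hsp90b1 -0.12, so the abundant isomerases and GRP94 did not follow BiP. Members with an ERSE or ERSE-II and those without one overlapped widely. The 12 with an element had a median difference of -0.33 between zinc 3 and the other libraries, within -1.33 to 0.97, and the 23 without had -0.21, within -1.29 to 0.82. Hspa5, Calr and Derl3 all carry the element printed above and stood at opposite ends. Milli-Q water 4 held the highest value of 15 members.

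Whether the members varied together was asked first of Hspa5 and 6 UPR-induced genes over the 8 libraries. Relations were tested by the exact permutation test over all orders of the libraries, two-sided, with Benjamini-Hochberg adjustment over the 6. Manf followed Hspa5 most closely, at Pearson r = 0.97 (exact p = 4.96e-05, adjusted 0.000298) and Spearman rho = 0.98 (exact p = 0.000397, adjusted 0.00238). Creld2 gave r = 0.92 (exact p = 0.00345, adjusted 0.00689) and rho = 0.79 (exact p = 0.0279, adjusted 0.0559). For Dnajb9 r was 0.89 (exact p = 0.00278, adjusted 0.00689) and rho was 0.83 (exact p = 0.0154, adjusted 0.0461). Pdia4 gave r = 0.58 (exact p = 0.135, adjusted 0.202) and rho = 0.74 (exact p = 0.0458, adjusted 0.0687). Sdf2l1 gave r = 0.51 (exact p = 0.181, adjusted 0.217) and Hsp90b1 r = 0.48 (exact p = 0.223, adjusted 0.223), and both had a rho of 0.50 (exact p = 0.216, adjusted 0.216).

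The relation with Manf also held when libraries were left out. Without the 2 libraries farthest from the median of Hspa5, zinc 3 and Milli-Q water 3, r was 0.98 for Manf (exact p = 0.00139, adjusted 0.00833) and 0.91 for Dnajb9 (exact p = 0.0139, adjusted 0.0417). Creld2 then gave r = 0.72 (exact p = 0.11, adjusted 0.162), Pdia4 0.76, Sdf2l1 0.75 and Hsp90b1 0.03, and these 4 missed the threshold, the last 3 at adjusted exact p of 0.153, 0.162 and 0.949. Without zinc 3 alone Manf stayed at r = 0.98 (exact p = 0.000397, adjusted 0.00238), while Creld2 (r = 0.80) and Dnajb9 (r = 0.79) both had an adjusted exact p of 0.064 and missed the threshold. Without zinc 4 Hsp90b1 came to r = 0.83 (adjusted exact p = 0.0116). Within groups, after the mean of each group was subtracted, r was 0.96 for Manf, 0.89 for Creld2, 0.88 for Dnajb9, 0.57 for Pdia4, 0.35 for Sdf2l1 and 0.26 for Hsp90b1. Libraries share their depth and composition over all genes, which can move genes together, and that was not tested.

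**Figure D5:**
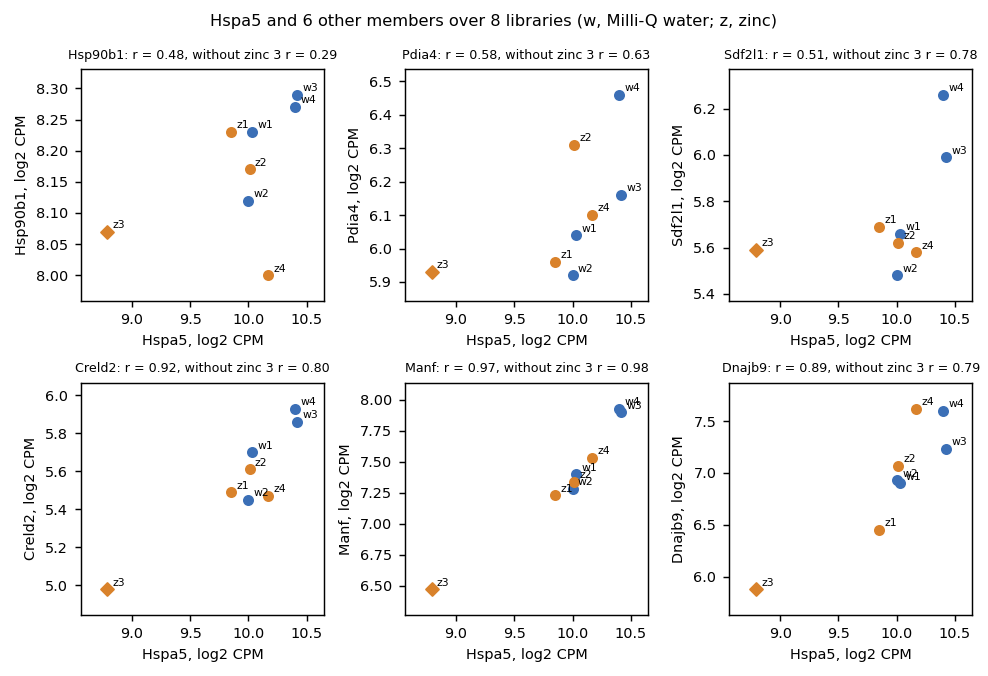
Log2 CPM of Hspa5 (x axis) against 6 other members (y axes) in the 4 Milli-Q water (blue, w1 to w4) and 4 zinc libraries (orange, z1 to z4), with zinc 3 as a diamond. Manf lies on a line with Hspa5 with and without zinc 3 (r = 0.97 and 0.98), whereas Hsp90b1 is scattered (r = 0.48 and 0.29).

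Over all members the r with Hspa5 went from 0.98 for Calr and 0.97 for Derl1 to -0.87 for Os9 and -0.89 for Ero1b, as a description over 8 libraries. Several of these rested on zinc 3, and for Canx r went from 0.68 to -0.77 without it. The glycoprotein quality control genes went both ways, with Os9 at -0.85 and Calr at 0.85 without zinc 3, and Uggt1 was at -0.52 over all libraries and at -0.91 without zinc 3. Over the 780 pairs of members the median r was 0.25, beside 0 for pairs of all tested genes, and 12.9% of member pairs were over 0.8, beside 4.22%. A negative r was found in 40.8% of member pairs, beside 50.2% of pairs of all tested genes. The median was 0.23 without zinc 3 and 0.04 in the 5 libraries left when Milli-Q water 3 and 4 were also removed. The 5 tested genes most like Hspa5 over the 8 libraries were Cib1 (r = 0.99), Acot9 (0.989) and Ppp1r14d, Ntmt1 and Tnfaip8l1 (0.988 each), none of them a member, and without zinc 3 they gave 0.928 to 0.938.

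Of 39 other ER folding genes 27 were tested, with 13 higher and 14 lower, and 0 passed the adjusted threshold by edgeR. At an unadjusted p under 0.05 were 0 higher and 2 lower, Tmx3, a membrane-bound isomerase (-0.42 ± 0.173), and Sdf2, the relative of Sdf2l1 (-0.53 ± 0.232). Agr2, an isomerase of mucus-making cells and also a goblet marker, was the highest of this list at 448 TPM, below the 589 TPM of P4hb. It had 433 to 977 CPM with water and 485 to 782 CPM with zinc (log2 fold change -0.20 ± 0.275). Without scaling by length P4hb was much higher, at 2040 to 2770 CPM with water. Fkbp9, a prolyl isomerase, had the smallest p among those higher (0.26 ± 0.145). All 33 other ERAD genes were tested, with 11 higher, 22 lower and 0 passing by edgeR, and 1 was under 0.05 unadjusted, Get4, of the chaperone complex that receives ERAD substrates in the cytosol (-0.39 ± 0.174, and -0.12 without Milli-Q water 3 and 4). Aup1, an ERAD protein of the HRD1 complex and lipid droplets, was the highest of them at 22.1 TPM and differed little (0.06 ± 0.132). Erlec1, a lectin related to Os9, had the smallest p among those higher (0.28 ± 0.191, and 0.08 without zinc 3).

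Of 19 UPR sensors and transcription factors 18 were tested, with 8 higher, 10 lower and 0 passing by edgeR. The 1 gene under 0.05 unadjusted was Ern2, the IRE1 sensor of the gut epithelium. It had 83.3, 62, 73 and 66.8 CPM with water and 104, 81.7, 119 and 76.9 CPM with zinc, which gave 0.42 ± 0.176 (adjusted p = 0.485, edgeR) and 0.30 without zinc 3. The groups overlapped through zinc 2 and zinc 4. Atf4, the factor of the PERK branch, was the highest of the list by TPM, at 132 TPM. It had 345 to 411 CPM with water and 201 to 429 CPM with zinc (-0.26 ± 0.222, and -0.10 without zinc 3). Without scaling by length Xbp1 was higher, at 588 to 657 CPM with water and 287 to 570 CPM with zinc, though at 72.5 TPM. Its log2 fold change was -0.39 ± 0.21 (adjusted p = 0.508, edgeR), and -0.20 without zinc 3, its lowest library. Ppp1r15a, the phosphatase subunit that ends the PERK response, had the smallest p of those lower. It ran from 73.4 to 93.7 CPM with water and had 44.3, 64.3, 19.2 and 84.3 CPM with zinc, lowest in zinc 3 like Hspa5 (-0.66 ± 0.351, adjusted p = 0.502, edgeR), and -0.38 without that library. Summed over the list, zinc 3 held 1420 CPM and the other libraries 1930 to 2680 CPM.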

How the data were processed

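Poly(A)-selected, strand-specific libraries of sorted PCs were deposited by the authors as raw counts per Ensembl gene, 1 column for each of 8 libraries. The submitters' processing notes list FastQC 0.12.0, STAR 2.7.10a, DESeq2 and the build mm39; the counter and its rule for reads with several matches or for overlapping genes are not given in the sources used here. Symbols, coordinates and exon lengths came from GENCODE M39 (GRCm39): 54749 identifiers matched and 665, with 0.00443% of counts, did not. Groups were taken from the labels.

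Zinc was compared with Milli-Q water in edgeR 4.0.16 (R 4.3.3): TMM factors, filterByExpr (10707 genes, 99.89% of counts), quasi-likelihood F-test, Benjamini-Hochberg adjustment over all tested genes, threshold 0.05. The biological coefficient of variation was 0.269. CPM use TMM-scaled library sizes, and log2 CPM a prior count of 2. SE is the standard error of the log2 fold change. Over 28 pairs of libraries chi-square per degree of freedom was at least 6.39, more than repeat sequencing of the same library would give. This cannot show that the libraries came from different mice, and each was taken as 1 replicate from its label. Scripts were tested on simulated data. Alternatives were DESeq2 1.42.0, limma-voom with sample quality weights (limma 3.58.1), other scalings, filters and lengths, a replicate block and left-out libraries.

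Full values were given for Hspa5, Hsp90b1, Pdia4, Sdf2l1, Creld2, Manf, Dnajb9 and Herpud1, for the most abundant member and that of smallest p in each role, for the 3 members of smallest p in each direction, and for the gene of highest level and of smallest p in each direction of the other pathway lists. Sdf2, Xbp1 and the members given by range or in zinc 3 were added after their values were seen. The members and lists were chosen with earlier results of these data known. Protein sequences were not analysed here.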

Additional observations from a re-analysis of the deposited data

How the results depend on the processing

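No alternative called a member, and the smallest adjusted p of a member ran from 0.186 to 0.896. DESeq2 called 4 of all genes, the others 0. The members' median log2 fold change was below 0 under every alternative but 1, between -0.148 and -0.033 when 1 library was left out, -0.021 without Milli-Q water 3 and 4, and 0.04 in the 5 libraries that also leave out zinc 3, an alternative chosen after seeing the data. Replicate numbers did not pair the libraries (r of same-numbered deviations -0.027 to 0.027), and with a replicate block the members' median was -0.104, 0 of them had an unadjusted p under 0.05 and 802 of all genes did, against 1092. The members' part of all TPM was 0.238% with the longest transcript and 0.259% with Ensembl canonical transcripts, the latter chosen after seeing the data. Of the 6 members set against Hspa5, the number with an adjusted exact p under 0.05 for Pearson r ran from 1 without zinc 3 to 4 without zinc 4. The same share over all tested genes was not computed, so these counts cannot be read as particular to the members.

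Signs changed for several genes. In the 5 libraries the log2 fold change was 0.008 for Hspa5, 0.008 for Herpud1, 0.032 for Manf, 0.215 for Dnajb9, 0.063 for Sdf2l1, 0.156 for Pdia4, 0.166 for P4hb, 0.227 for Ppib, 0.007 for Selenok and 0.19 for Agr2. Without Milli-Q water 3 and 4 it was 0.039 for Sdf2l1, 0.095 for Pdia4, 0.147 for P4hb, 0.253 for Ppib and 0.269 for Agr2. By limma-voom with sample quality weights, which changes the method and the weighting at once, it was 0.057 for Pdia4, 0.017 for P4hb and 0.045 for Ppib, and with length offsets 0.013 for P4hb and 0.01 for Ppib. With 1 library left out it ran from -0.161 to 0.045 for Pdia4, -0.317 to 0.048 for Herpud1, -0.092 to 0.054 for P4hb, -0.128 to 0.11 for Ppib and -0.007 to 0.114 for Aup1. The cause was not tested. With 4 libraries a group and this spread, changes of the size seen here could not be told from 0.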
